A study of Mus musculus with 6 samples.

Results

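The genes described here are 9 components of tight junctions, taken by name from the 31053 genes of the count matrices: the claudins Cldn1, Cldn5 and Cldn11, occludin (Ocln), the scaffold Tjp1 (which encodes ZO-1), the adaptor cingulin (Cgn), and the immunoglobulin-like adhesion proteins F11r (which encodes JAM-A), Jam2 and Esam. The other 57 genes of a wider tight junction list serve as the surrounding pathway. Cells were taken from wild-type adult C57BL6 mice of both sexes that received no treatment, from 2 tissues. Cortical surface-associated cells (4 libraries) were released by enzyme from the surface of the dorsal cortex, with its leptomeninges, and bone-associated cells (2 libraries, Dura/Skull in the labels) came from the meningeal tissue lining the inside of the skull. All libraries were sorted for live cells (DRAQ5-positive, propidium iodide-negative) and profiled with 10x Genomics 3' chemistry. Each library pooled several mice of both sexes, so the spread between libraries is not the spread between mice.

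Tight junctions seal the space between neighbouring cells. Claudins span the membrane and form the strands that set which solutes pass, occludin sits in the same strands, and the angulins Lsr and Ildr2 mark the corners where 3 cells meet. JAM-A, JAM-B (Jam2) and ESAM are adhesion proteins at the same contacts, and ZO-1 and cingulin tie the strands to actin. Claudin-5 is the main claudin of the blood-brain barrier endothelium, claudin-11 forms the junctions of myelin and of the arachnoid barrier, and the choroid plexus epithelium has tight junctions that separate blood from cerebrospinal fluid. Endothelium of the dura, in contrast, is largely fenestrated.

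In all 8680 cells were kept. The libraries held 8408685 to 56169736 UMIs (unique molecular identifiers, each counting 1 captured transcript), and any 2 libraries shared 0 to 2 cell barcodes. Cortical surface replicates 3 and 4 stood apart: hemoglobin genes took 84.6% and 71.9% of their UMIs, against 0.0908% to 0.52% in the other 4. Cell classes were rebuilt by clustering with all tight junction genes kept out, and are called "-like" from marker genes. All 31 endothelial, 11 mesenchymal, 11 choroid plexus, 8 astrocyte, 7 oligodendrocyte and 9 microglia markers had UMIs in their own class, and 27 of the 31 endothelial ones were found in at least 20% of the cells. The same lists named the classes, so this describes them and is no check of the names. Levels are given in CPM, the UMIs of a gene summed over a class in 1 library and scaled to a class total of 1000000 UMIs. Because a UMI marks the 3' end of 1 transcript, no length correction is needed, and levels of different genes are compared only as UMI counts.

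The 9 genes lay on 6 chromosomes of GRCm38 (mm10). Cldn5 was at chr16:18776847-18778262 on the plus strand, Cldn1 at chr16:26356642-26371841 on the minus strand, and Jam2 at chr16:84774123-84825928 on the plus strand. Cldn11 was at chr3:31149920-31164324 (plus) and Cgn at chr3:94760069-94786492 (minus). Ocln was at chr13:100496507-100552718 (minus), Tjp1 at chr7:65296165-65527781 (minus), F11r at chr1:171437535-171464603 (plus) and Esam at chr9:37528078-37538319 (plus). All are protein-coding.

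Cldn5, Ocln and Tjp1 were low together in several kinds of bone-associated endothelium, as described below, and the 250 bases before their RefSeq start sites (GRCm38.p6) are shown 5' to 3' on the gene's own strand for that reason. Capitals mark the GC box, the binding motif of SP1-type factors, as GGGCGG or its reverse complement CCGCCC. The Cldn5 window was chr16:18776597-18776846, the Ocln window chr13:100552719-100552968 and the Tjp1 window chr7:65371245-65371494. RefSeq lists 2 start sites for Ocln, of which the outer is shown, and the Tjp1 window lies inside the span of the longest annotated Tjp1 transcript.
Cldn5: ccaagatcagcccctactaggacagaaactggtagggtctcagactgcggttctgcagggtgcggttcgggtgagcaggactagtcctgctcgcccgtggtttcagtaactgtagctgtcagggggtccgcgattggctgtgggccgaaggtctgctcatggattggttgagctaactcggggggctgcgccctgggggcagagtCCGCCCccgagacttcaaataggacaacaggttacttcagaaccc
Ocln: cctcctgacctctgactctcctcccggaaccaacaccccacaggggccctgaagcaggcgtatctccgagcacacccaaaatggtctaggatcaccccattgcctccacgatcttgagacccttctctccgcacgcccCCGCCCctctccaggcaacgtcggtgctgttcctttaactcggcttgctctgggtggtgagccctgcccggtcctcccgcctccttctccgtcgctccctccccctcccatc
Tjp1: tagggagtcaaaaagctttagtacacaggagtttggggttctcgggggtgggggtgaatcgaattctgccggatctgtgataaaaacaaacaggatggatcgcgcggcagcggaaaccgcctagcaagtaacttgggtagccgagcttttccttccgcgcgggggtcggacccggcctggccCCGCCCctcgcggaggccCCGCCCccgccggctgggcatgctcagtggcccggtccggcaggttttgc
The GC box occurred 1 time before Cldn5, 1 time before Ocln and 2 times before Tjp1, on either strand, and 32.7% of 32851 RefSeq promoters of the same length hold it. GGAA, the core read by ETS factors such as Erg, was found 2 times before Ocln and 3 times before Tjp1 on either strand and not before Cldn5. That core is in 93.4% of all promoters. Neither the TATA box (TATAAA, 12.4% of promoters) nor the SOX core (AACAAT, 9.42%) was in any of the 3 windows. These are letter matches and not measured binding.

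Cldn5 was the endothelial claudin among the 3, and its level depended on the preparation. In the cortical surface endothelial-like cells (540 cells) it reached 6371, 8426, 6704 and 7910 CPM in replicates 1 to 4, and in the bone-associated ones (600 cells) 2223 and 2096. Every cortical surface library was above both bone-associated libraries. The log2 fold change, cortical surface over bone-associated, was 1.78 (SE 0.25, edgeR quasi-likelihood adjusted p = 4.28e-05). With cortical surface replicates 1 and 2 alone, the libraries without excess hemoglobin, the log2 fold change was 1.68 (edgeR adjusted p = 2.31e-05). A Cldn5 UMI was found in 97.8% of cortical surface and 57.8% of bone-associated endothelial-like cells, although the latter were the deeper ones, with a median of 7302 against 5154 UMIs per cell. After each cell was thinned to 1500 UMIs (25 and 9 shallower cells left out) the shares were 98.1% and 48.1%. In T or NK cell-like cells, which should lack the gene and give the background of free RNA, the share was 2.15% in the bone-associated libraries at a median of 6121.5 UMIs.

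Occludin followed Cldn5. Its level was 201, 256, 195 and 193 CPM in the cortical surface endothelial-like cells and 75.9 and 44.0 in the bone-associated ones, with no overlap, and the log2 fold change was 1.86 (SE 0.23, edgeR adjusted p = 1.24e-05). Replicates 1 and 2 alone gave 1.87 (edgeR adjusted p = 8.21e-06). The share of cells with an Ocln UMI was 63.7% against 21.2%, and no T or NK cell-like cell of the cortical surface held one (538 cells at a median of 5951.5 UMIs, which allows a share of up to 0.558%). Tjp1 stood between these 2 genes and the rest. It measured 685, 479, 498 and 665 CPM against 413 and 241, again without overlap, but its log2 fold change of 0.85 (SE 0.24, edgeR adjusted p = 0.0189) was below the limit of 1.3 used for a call.

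The 3 immunoglobulin-like members were not called in this comparison. Esam was 1001, 1016, 810 and 895 CPM in the cortical surface endothelial-like cells and 868 and 825 in the bone-associated ones, and its log2 fold change was 0.14 (SE 0.20, edgeR adjusted p = 0.736). Jam2 was 420, 333, 356 and 393 against 352 and 298, a log2 fold change of 0.22 (SE 0.19). F11r was 213, 256, 174 and 217 against 245 and 260, a log2 fold change of -0.22 (SE 0.19). The ranges of all 3 overlapped between the preparations. These standard errors leave small differences undetected.

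In all, 6 of the 9 genes passed the detection filter in endothelial-like cells (a UMI in over 10% of the cells of either preparation), and 2 were called, both higher at the cortical surface. Of all 7688 genes tested 6.27% were called, 2.22% higher in the cortical surface and 4.05% higher in the bone-associated libraries. The median log2 fold change of the 6 was 0.53, beside 0.03 over all genes tested. Cldn1 had no UMI in either preparation, which allows up to 0.865 and 0.583 CPM, Cgn had 1 UMI in all 1140 cells, and Cldn11 was found in 2.59% and 3.83% of the cells. Cldn11 was nevertheless among the leading genes of 1 bone-associated sub-cluster, described below. Hemoglobin genes were at 56.7, 825, 84498 and 18098 CPM in the endothelial-like cells of cortical surface replicates 1 to 4. In the bone-associated ones they were at 43.8 and 74.1, so replicates 3 and 4 were far above the rest and replicate 1 lay within the bone-associated range. Leaving the hemoglobin genes out of the fit gave log2 fold changes of 1.77 for Cldn5 and 1.85 for Ocln. Summed border macrophage markers were at 169 to 765 and 112 to 136 CPM, with 10 or 11 and 6 to 8 of 11 markers detected, and their part in these results was not tested.

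Among the other genes of the wider list, 21 were tested in endothelial-like cells and 5 were called, beside 6.27% of all 7688 genes tested. The angulins Ildr2 and Lsr, which recruit tricellulin to 3-cell corners, were higher at the cortical surface by log2 fold changes of 2.27 (SE 0.40) and 1.75 (SE 0.21). Lsr was at 380 ± 46.6 CPM (SD, n = 4) against 114 ± 28.6 (SD, n = 2), and Ildr2 at 95.5 ± 35.8 against 21.7 ± 19.6. Amot, which encodes angiomotin, a scaffold that binds angiostatin and polarity proteins, was also higher there (1.35, SE 0.31). Its call was lost in 4 alternatives, with values of 1.20 without cortical surface replicate 1 and 0.93 without bone-associated replicate 2. Jam3, which encodes the adhesion protein JAM-C, was higher in the bone-associated libraries, at 93.5 ± 19.9 against 20.9 ± 7.27 CPM (log2 fold change -2.13, SE 0.27), and so was the scaffold Magi1 (-1.46, SE 0.27), whose value with cortical surface replicates 3 and 4 alone was -1.26, under the fold limit. The edgeR adjusted p of these 5 genes ranged from 9.29e-06 for Lsr to 0.00432 for Amot. The median over the 21 was -0.05. Magi1 was sparse at the cortical surface, with a UMI in 4 of 60, 18 of 169, 7 of 72 and 7 of 160 capillary-like cells (described below) of replicates 1 to 4. Which of the 5 genes passed the detection filter only through the preparation where they are high is not separated here. Their count is therefore given as no support. By their mean over all 6 libraries the highest of the other list genes in this class were Lsr (291 ± 142 CPM), Afdn (235 ± 40.8), an actin-binding adaptor, and Ybx3 (191 ± 20.3), the ZO-1-associated factor ZONAB. This order held for the cortical surface only, since Lsr was at 134 and 93.9 in the bone-associated libraries, below Afdn (222 and 187) and Ybx3 (228 and 192).

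**Figure D1:**
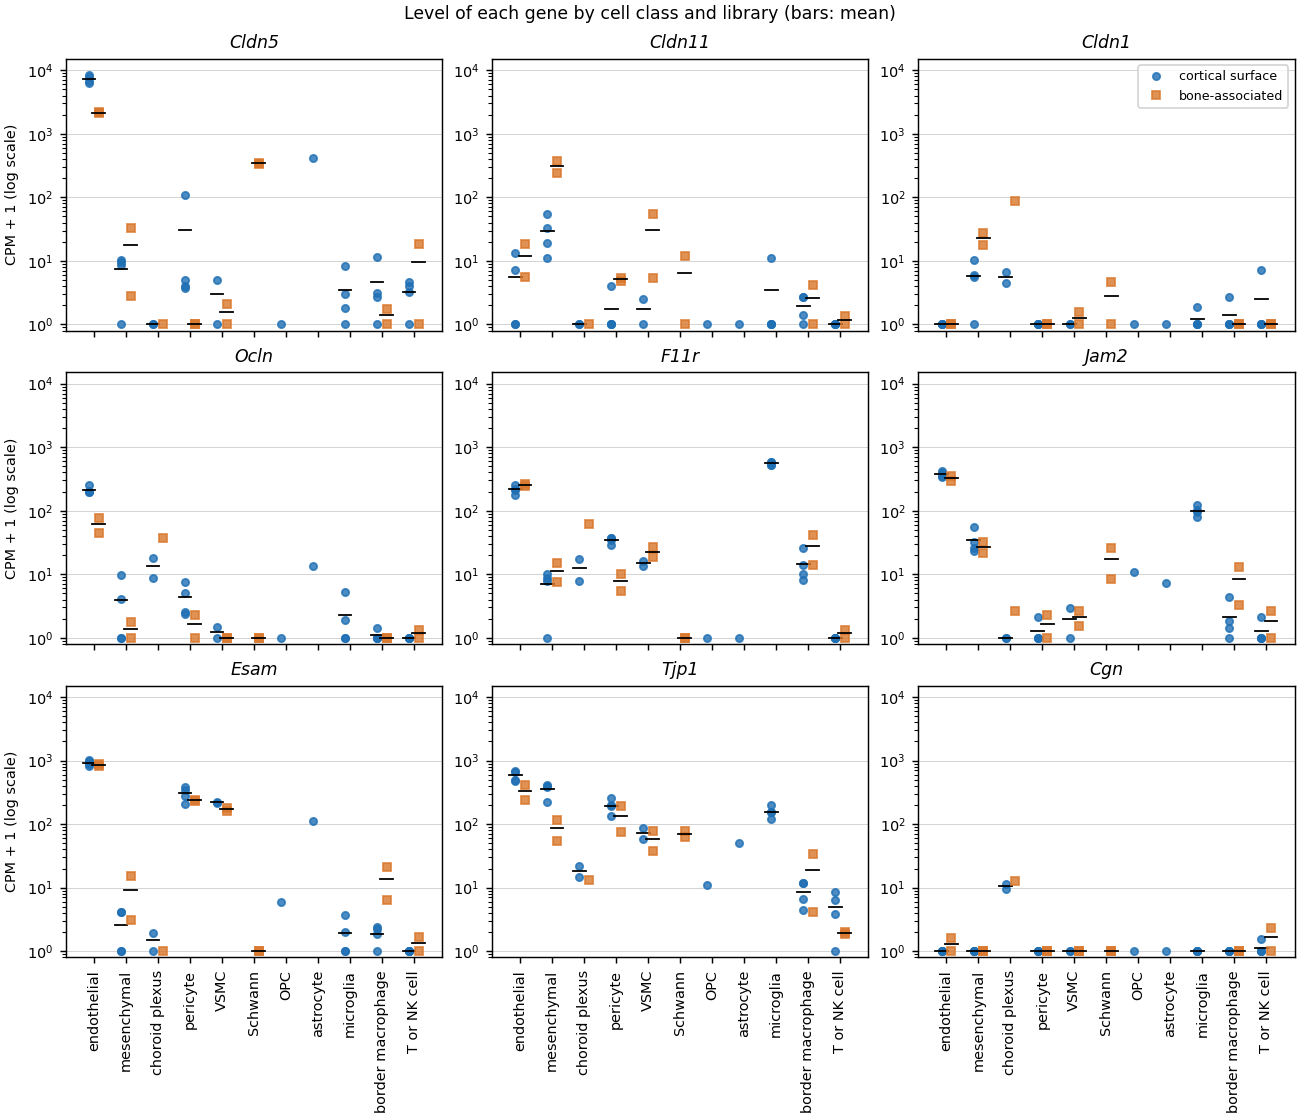
Levels of the 9 genes by cell class (CPM + 1, log axis), 1 point per library with at least 10 cells, circles for cortical surface and squares for bone-associated libraries, and black bars for the mean. Among the classes drawn, Cldn5 and Ocln were highest in endothelial-like, Cldn11 in bone-associated mesenchymal-like and F11r in microglia-like cells. Oligodendrocyte-like cells, under 10 per library, are not drawn, and neither are neurons or the monocyte, dendritic, neutrophil, B, mast and erythroid-like cells.

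The 2 preparations held different endothelial kinds, and the levels of Cldn5, Ocln and Tjp1 differed between kinds as well as, in arterial-like cells, between the preparations. Sub-clusters were made within each preparation without tight junction genes, so values between them are descriptions. At the cortical surface 4 sub-clusters of 123, 118, 114 and 106 cells were blood-brain barrier capillary-like and 69 cells were arterial-like. The sub-cluster of 106 cells was led by 4 capillary markers and by 3 of the fenestrated or venous list. In the bone-associated libraries 45 cells were blood-brain barrier capillary-like, 143 arterial-like and 118 fenestrated or venous-like, and 3 sub-clusters stayed unnamed. The largest of these (188 cells) was led by Gpihbp1, which anchors lipoprotein lipase on capillaries, and had 2623 CPM of Plvap, which builds the diaphragms of fenestrae.

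Cldn5 spanned a wide range within the bone-associated endothelium. The Gpihbp1-led sub-cluster had 117 CPM (exact Poisson 95% interval 99.5 to 137, counting error only), 144 in replicate 1 and 107 in replicate 2. A second unnamed sub-cluster with 2169 CPM of Plvap (47 cells) had 475, and the fenestrated or venous-like cells had 758. Arterial-like cells had 2848 and blood-brain barrier capillary-like cells 6756. Another unnamed sub-cluster of 59 cells had 5457 CPM of Cldn5, 4007 in replicate 1 and 6338 in replicate 2. Its Plvap level was 9.5 CPM, its level of Slc2a1, the glucose transporter of the barrier endothelium, was 1735, and the venous markers Ackr1 (203) and Vwf (1982) were present. Cldn11 was among the leading genes of these 59 cells, with a UMI in at least 20% of them. The named cortical surface sub-clusters ranged from 6549 to 10110 in the capillary-like and 7373 in the arterial-like sub-clusters.

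Ocln and Tjp1 showed the same split. In the 4 bone-associated sub-clusters other than the capillary-like and the Slc2a1-high one, Ocln was at 3.8 to 37.2 CPM, against 201 in the Slc2a1-high and 165 in the capillary-like cells and 159 to 263 in the named cortical surface sub-clusters. Tjp1 was at 187 to 263 in the former 4, against 589 and 572 in the other two and 492 to 632 at the cortical surface. Lsr ran in parallel, at 4.6 to 83.1, against 394 and 238, and 346 to 423. Esam, Jam2 and F11r kept to narrower ranges in these 11 sub-clusters, at 651 to 1097, 246 to 420 and 198 to 313 CPM. In the Gpihbp1-led cells, where Cldn5, Ocln and Lsr were all near their lowest, Esam was at 961, Jam2 at 297 and F11r at 313 CPM. The last cortical surface sub-cluster, 10 unnamed cells led by the macrophage genes Pf4 and Mrc1, had 3417 of Cldn5.

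**Figure D2:**
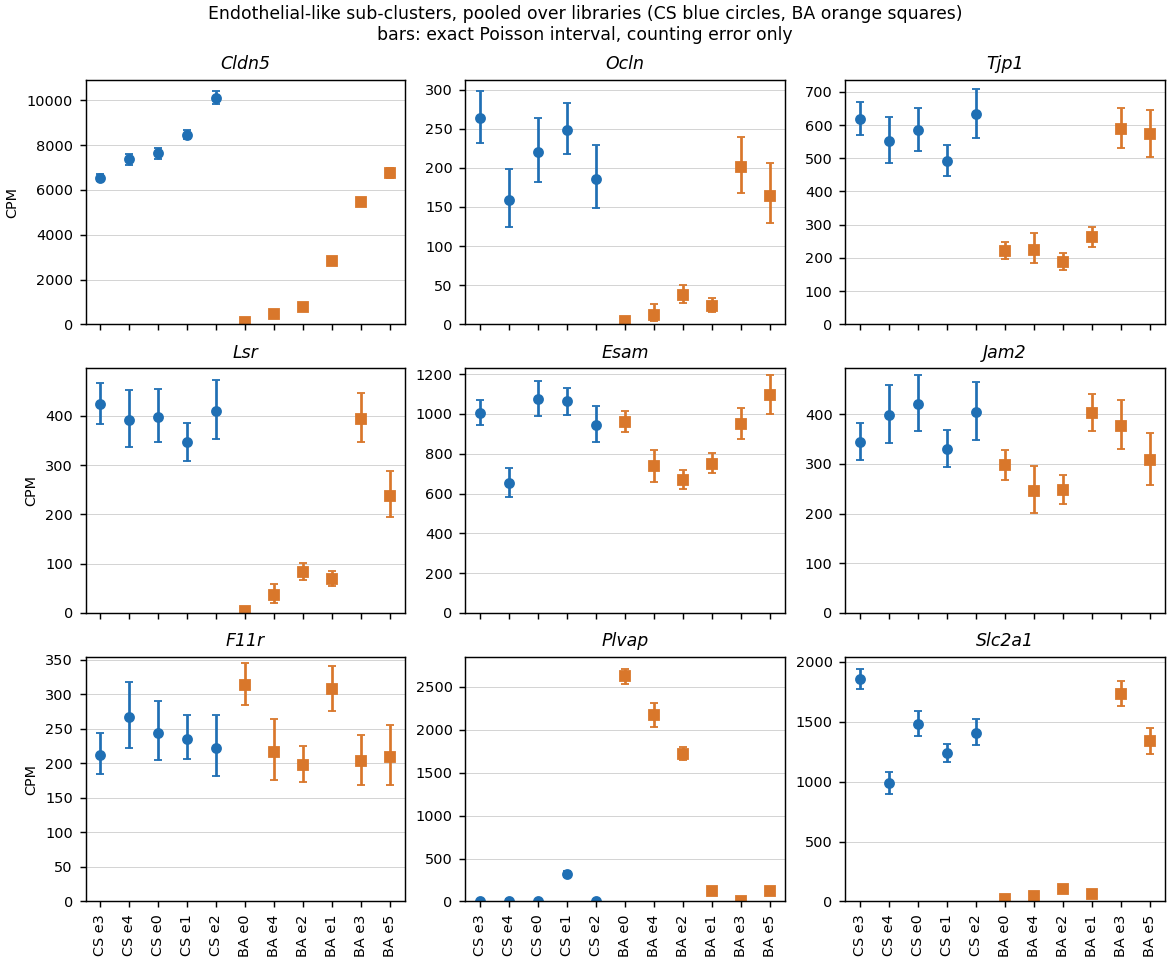
Levels (CPM, linear axes from 0) of 7 junction genes, Plvap and Slc2a1 in the endothelial sub-clusters of the cortical surface (CS, circles; e4 arterial-like, the others capillary-like) and bone-associated preparation (BA, squares; e0 Gpihbp1-led, e1 arterial-like, e2 fenestrated or venous-like, e3 Slc2a1-high, e4 unnamed, e5 capillary-like), with exact Poisson intervals; the 10-cell sub-cluster is not drawn. Cldn5 ran from 117 in BA e0 to 10110 in a capillary-like cortical surface sub-cluster, while Esam stayed between 651 and 1097.

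Within arterial-like cells the preparations could be compared for cells named by the same arterial markers, although not for 1 kind of vessel. Cldn5 was at 6288, 8649 and 7446 CPM in cortical surface replicates 1, 2 and 4 (12, 19 and 33 cells) and at 2532 and 2993 in the bone-associated ones (38 and 105 cells). The groups did not overlap, and the log2 fold change was 1.43 (SE 0.31, edgeR adjusted p = 0.00229). This call rested on having both bone-associated libraries. Without replicate 1 the value was 1.28 (edgeR adjusted p = 0.213) and without replicate 2 it was 1.62 (edgeR adjusted p = 0.0970). Ocln was at 175, 139 and 190 against 13.8 and 28.0 CPM, a log2 fold change of 2.84 (SE 0.39, edgeR adjusted p = 2.27e-06), and stayed called with either bone-associated library left out. Tjp1 was at 785, 457 and 536 against 372 and 212, a log2 fold change of 1.02 (SE 0.29, edgeR adjusted p = 0.0277) that was below the fold limit, and it was called only without bone-associated replicate 1 (1.42, edgeR adjusted p = 0.0451). Lsr was higher at the cortical surface (2.51, SE 0.30, edgeR adjusted p = 1.80e-07) in all 17 alternatives as well, while Magi1 was lower (-1.73, SE 0.53, edgeR adjusted p = 0.0453). The Magi1 call was lost in 8 alternatives, among them DESeq2 (adjusted p = 0.464) and the fits without cortical surface replicate 1, without replicate 2 or without either bone-associated library. The log2 fold changes of Esam, F11r and Jam2 were -0.24, -0.15 and 0.03, with SE of 0.26 to 0.28, and none was called. In this comparison 4.45% of 7600 genes were called, 2.33% higher at the cortical surface and 2.12% higher in the bone-associated libraries. Slc2a1 was at 1045 ± 75.0 CPM (SD, n = 3) in the cortical surface and 55.2 ± 11.8 in the 2 libraries of bone-associated arterial-like cells. Plvap was at 8.85 ± 2.09 and 122 ± 16.4, so the kind of vessel was not held equal.

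Blood-brain barrier capillary-like cells gave no call among the 6 tested genes, beside 2.3% of 8083 genes called in either direction. They were the named kind with the highest Cldn5 in the bone-associated libraries, while at the cortical surface their range overlapped that of arterial-like cells. Cldn5 was at 6614, 8446, 7331 and 8172 CPM at the cortical surface (60, 169, 72 and 160 cells) and at 6296 and 7377 in the bone-associated libraries (23 and 22 cells), and the ranges overlapped. The log2 fold change was 0.18 (SE 0.25, edgeR adjusted p = 0.850). That of Ocln was 0.53 (SE 0.30, edgeR adjusted p = 0.519), and its 2 bone-associated libraries differed, at 224 and 83.8 CPM. The other 4 lay between -0.07 and 0.35 with SE of 0.24 to 0.28. The bone-associated cells of this kind also carried B cell and antigen presentation genes, with Cd79a and Cd74 leading, and were few, so modest differences were not detectable. The cortical surface side included the 106 cells with venous markers, whereas the bone-associated sub-cluster of 59 cells with a like profile stayed unnamed and outside the comparison, so the 2 sides hold different mixes. The difference of the preparation effects itself, arterial minus capillary-like, was 1.22 on the log2 scale for Cldn5 (edgeR adjusted p = 0.000664) and 2.13 for Ocln (edgeR adjusted p = 0.00131). For Tjp1 it was 0.76 (edgeR adjusted p = 0.183), and 274 of 8670 genes passed this test. The capillary-like kind was named from barrier genes, among them Mfsd2a and Slc2a1, and the arterial-like kind was not. Slc2a1 was at 1452 ± 196 CPM in the cortical surface and 1287 ± 488 in the bone-associated capillary-like cells. The part of this naming rule in the capillary-like values and in the difference of effects was not tested.

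**Figure D3:**
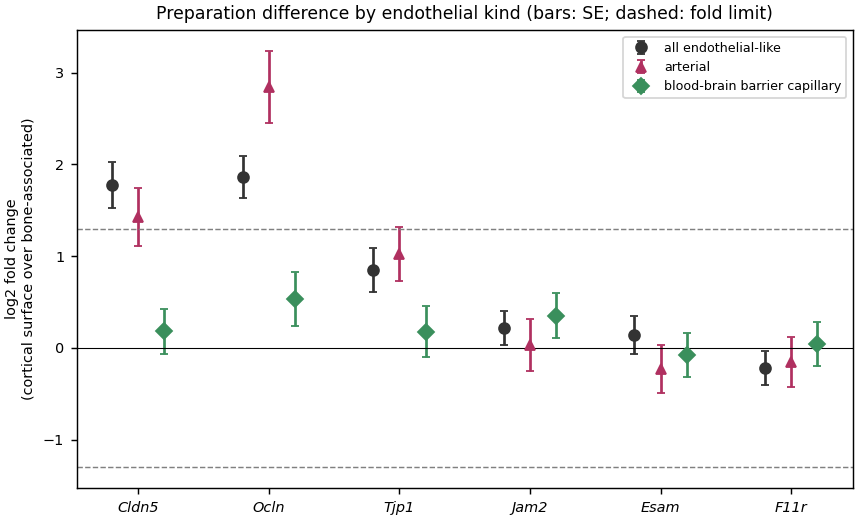
Log2 fold changes (cortical surface over bone-associated) with their SE for the 6 tested genes, in all endothelial-like, arterial-like and blood-brain barrier capillary-like cells. Cldn5 and Ocln were above the dashed limit of 1.3 in the first 2 and at 0.18 and 0.53 in the capillary-like cells, while Esam, Jam2 and F11r lay near 0 in all 3.

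The mesenchymal-like class was named from fibroblast genes such as Dcn and Col1a2, and here other members led. Whether it includes barrier cells of the arachnoid was not tested. Cldn11 was at 371 and 242 CPM in the 2 bone-associated libraries (287 cells) and at 32.4, 54.2, 10.1 and 18.4 in cortical surface replicates 1 to 4 (280 cells). Every bone-associated library was above every cortical surface one, and the log2 fold change, cortical surface over bone-associated, was -3.02 (SE 0.34, edgeR adjusted p = 9.90e-07). A Cldn11 UMI was found in 58.9% against 10.0% of cells (median depths 14897 and 7668 UMIs), and in 24.6% against 3.01% after thinning to 1500 UMIs. All 3 bone-associated clusters held it, at 278, 251 and 227 CPM. Their leading genes were unlike: Comp and Chad in 139 cells, Apod and Inmt in 93, and Gjb6 with Slc47a1 in 55. The study uses Gjb6 as a leptomeningeal gene and names Slc47a1, Cdh1 and Dpp4 among its arachnoid genes. Of these, Cdh1 had no UMI in any of the 287 cells, and Dpp4 was found in 1. Slc47a1 was found in 11 of the 42 cells with a Cldn1 UMI and in 115 of the 245 without. Ppp1r1a, Bnc2, Rspo2 and Opn3, also arachnoid genes of the study, were not examined. By their leading genes the preparations hold different mixes of mesenchymal-like cells, whose part in the Cldn11 and Tjp1 differences was not tested. At the cortical surface the larger cluster, led by Slc6a13, Slc22a6 and Ptgds (213 cells), had 19.5 and the smaller, led by Igfbp6 and Igfbp5 (67 cells), had 106. No T or NK cell-like cell of the cortical surface held a Cldn11 UMI.

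Tjp1 went the other way. It was at 377, 221, 408 and 404 CPM in the cortical surface mesenchymal-like cells and at 117 and 53.8 in the bone-associated ones, without overlap, and the log2 fold change was 2.12 (SE 0.35, edgeR adjusted p = 1.10e-04). The Slc6a13-led cluster had 335 CPM and the Igfbp6-led one 147, against 40.7 to 87.8 in the 3 bone-associated clusters. With cortical surface replicates 1 and 2 alone the log2 fold change was 1.87 for Tjp1 and -2.75 for Cldn11, and both were called. The preparation effect on Tjp1 was larger in mesenchymal-like than in endothelial-like cells, by 1.24 on the log2 scale in a test of the difference (edgeR adjusted p = 0.00744). Of 10198 genes, 1099 passed that test.

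Cldn1, the main claudin of epidermis, was also called in this class and was sparse. It was at 26.2 and 17.0 CPM in the bone-associated libraries and at 4.63, 4.98, 0 and 9.19 in the cortical surface ones, and the log2 fold change was -2.08 (SE 0.52, edgeR adjusted p = 0.00553). The call was lost with DESeq2 (adjusted p = 0.0702) and with cortical surface replicates 3 and 4 alone (edgeR adjusted p = 0.191). In the bone-associated libraries 42 of 287 cells (14.6%, exact binomial 95% interval 10.8% to 19.3%) held Cldn1, of which 16 had 2 or more UMIs, and the cluster led by Apod and Inmt had the most, at 44.3 CPM. The epithelial genes Krt8, Krt18 and Cdh1, the last also an arachnoid gene of the study, had no UMI in any of the 287 cells. As a description, F11r was found in 13 of the 42 cells with Cldn1 and in 7 of the 245 without, Wnt6 in 14 and 8, and the cingulin-like gene Cgnl1 in 21 and 43. Of the study's arachnoid genes examined here beside Cdh1, Slc47a1 was found in 11 and 115, and Dpp4 in 0 and 1, at median depths of 12584 and 15321 UMIs.

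In mesenchymal-like cells 4 of the 9 genes were tested, Cldn11 and Cldn1 through the bone-associated cells alone, and 3 were called, 1 higher at the cortical surface and 2 higher in the bone-associated libraries. Of all 9635 genes tested 14.3% were called, 5.64% higher at the cortical surface and 8.62% higher in the bone-associated libraries. The fourth, Jam2, was at 30.9, 22.4, 25.2 and 55.1 against 31.5 and 20.9 CPM, with overlapping ranges and a log2 fold change of 0.21 (SE 0.38). Cldn5, Ocln, F11r and Esam were each detected in under 10% of these cells in both preparations, and Cgn had no UMI, which allows up to 1.17 and 0.682 CPM. The median of the 4 was -0.94, beside -0.04 over all genes tested. Because Cldn11 and Cldn1 entered through the bone-associated cells, where they are high, this median and the count of calls are no support. Summed border macrophage markers were at 64.3 to 2536 CPM (3 to 11 of 11 markers) in the cortical surface and 8.74 to 109 (4 to 10 of 11) in the bone-associated mesenchymal-like cells, and summed choroid plexus markers, which include the widely expressed Enpp2, at 337 to 570 (4 to 7 of 11) and 2084 to 2580 (9 of 11). Their part in these results was not tested.

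**Figure D4:**
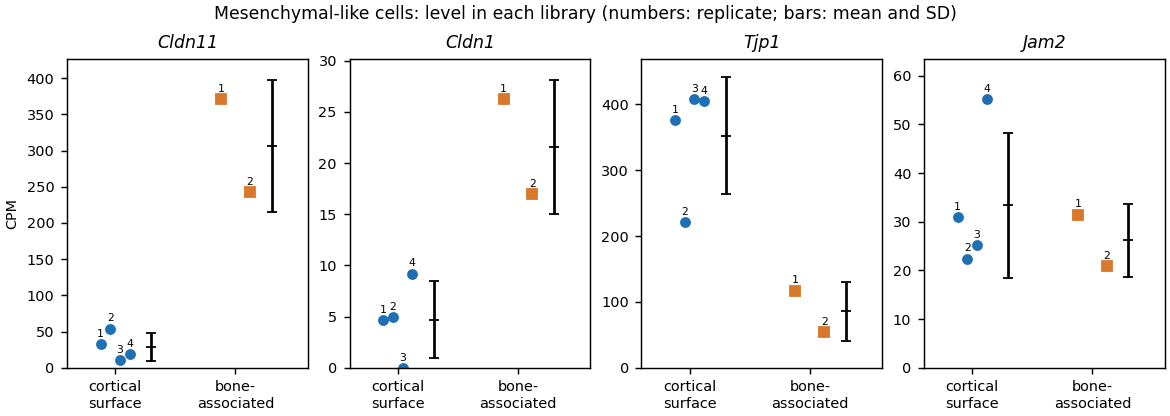
Levels of Cldn11, Cldn1, Tjp1 and Jam2 in mesenchymal-like cells (CPM), 1 point per library, with the mean and SD of each preparation as bars. Cldn11 was at 242 and 371 in the bone-associated and at most 54.2 in the cortical surface libraries, and Tjp1 was lower in both bone-associated libraries (53.8 and 117) than in all 4 cortical surface ones.

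Beyond the members, 27 genes of the wider list were tested in mesenchymal-like cells and 7 were called, beside 14.3% of all 9635 genes tested. The adhesion protein Cxadr, the coxsackievirus and adenovirus receptor, was at 95.3 ± 34.9 CPM (SD, n = 4) at the cortical surface and 6.03 ± 6.31 in the 2 bone-associated libraries, a log2 fold change of 4.73 (SE 0.55). Lsr was at 60.1 ± 22.0 against 5.42 ± 4.70, a log2 fold change of 4.12 (SE 0.51). Cxadr, Lsr and the polarity gene Prkcz passed the detection filter through the cortical surface cells alone. Cxadr and Lsr were each found in 2.38% of the 42 bone-associated cells with a Cldn1 UMI and in 2.45% of the 245 without. The calls of Cxadr, Lsr and Prkcz, and their part in the count of calls, are therefore given as values and as no support. The polarity genes Pard6g and Prkcz, partners in the PAR complex, were at 181 ± 38.4 against 27.7 ± 2.92 and at 38.1 ± 19.2 against 3.80 ± 2.05. Cgnl1 was higher at the cortical surface by a log2 fold change of 1.37 (SE 0.34). Ybx3 alone of the 7 was higher in the bone-associated libraries, at 201 ± 5.21 against 75.0 ± 20.8 CPM (-1.35, SE 0.28). Lying near the fold limit, the Ybx3 call was lost in 7 of 18 alternatives, with values of -1.25 without cortical surface replicate 1 and -1.27 without replicate 3. The Cgnl1 call was lost in 4, with values of 1.17 without cortical surface replicate 1 and 0.88 without bone-associated replicate 2. The edgeR adjusted p of the 6 genes named here ranged from 1.34e-06 for Cxadr to 0.00511 for Cgnl1, and the median over the 27 was 0.12. By their mean over all 6 libraries the highest of the other list genes were Clmp (222 ± 63.2), an adhesion protein related to Cxadr, Afdn (188 ± 94.7) and Pard6g (130 ± 84.4), although Pard6g and Afdn were both below Ybx3 in each bone-associated library.

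Cgn was the member of the choroid plexus-like cells, with 16 UMIs in each preparation against at most 4 in any other class and preparation described here. In cortical surface replicates 3 and 4 (36 and 99 cells) Cgn was at 10.3 and 8.67 CPM, and in bone-associated replicate 1 (17 cells) at 11.6. The other epithelial members were low in the cortical surface libraries, with Ocln at 17.1 and 7.71, F11r at 6.84 and 16.4, Tjp1 at 20.5 and 13.5 and Cldn1 at 3.42 and 5.78. The 17 bone-associated cells had 85.0 of Cldn1, 60.2 of F11r and 36.3 of Ocln. Cldn5 had no UMI in these cells in either preparation, which allows up to 2.08 and 2.26 CPM. Of the other list genes, Cldn2, the pore-forming claudin of leaky epithelia, was at 6.84 and 27.0 CPM in the 2 cortical surface libraries and at 125 in the bone-associated one, and Cgnl1 at 3.42, 12.5 and 137. Ybx3 was at 47.9 and 60.7 against 46.2, above Cldn2 and Cgnl1 in both cortical surface libraries and below them in the bone-associated one. Only 1 bone-associated library had at least 10 such cells, so no test was made. The 2 groups also differed in depth (medians of 8523 and 36045 UMIs) and in hemoglobin (35347 and 57226 CPM at the cortical surface, 19.0 in the bone-associated library). Ependymal markers summed to 899 and 969 CPM at the cortical surface and 166 in the bone-associated library, and mesenchymal markers to 86.7 and 123 against 507. The bone-associated cluster (22 cells) was led by 11 choroid plexus markers and also by 4 neuron markers, with Chgb, Syt4 and Pcsk1n among its top genes. The study describes choroid plexus cells in the cortical surface preparation only. The part of these other markers was not tested. After thinning to 1500 UMIs, Cldn1 was found in 2 of 133 and 2 of 21 cells, levels near that of 1 UMI.

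Among glia, Cldn11 separated oligodendrocytes from the rest. All 17 oligodendrocyte-like cells held it, with 552 UMIs in all and a pooled level of 2400 CPM (exact Poisson 95% interval 2204 to 2609), and the 4 cortical surface libraries gave 2747, 3650, 1293 and 1386 from 2, 5, 1 and 9 cells. Oligodendrocyte precursor-like cells had none in 22 cells, which allows up to 10.6 CPM. Tjp1 was at 87.0 CPM in the oligodendrocyte-like and 57.2 in the 32 astrocyte-like cells, and Jam2 at 52.8 in the astrocyte-like and 56.8 in the precursor-like cells. The Jam2 values rest on few cells: without cortical surface replicate 2, which held 20 of the 24 UMIs, the astrocyte-like level was 14.0. The precursor-like level was 33.5 without replicate 2 and 176 without replicate 3, which held 15 of the 22 cells. Astrocyte-like cells also showed 154 CPM of Cldn5, but 97.1% of these UMIs came from 3 cells, which also held 18 Esam, 21 Flt1 and 20 Ly6c1 UMIs. Without the 3 cells the level was 4.98. Peripheral glia gave a like picture. In the 84 bone-associated Schwann-like cells 3 cells with 55, 34 and 28 UMIs made up 99.2% of Cldn5, without any Pecam1, Esam, Flt1 or Ly6c1 UMI, and the level fell from 334 to 3.09 without them. The claudin of myelinating Schwann cells, Cldn19, had 120 UMIs in 39 of the 84 cells.

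Microglia-like cells were set against border macrophage-like cells of the same 4 cortical surface libraries, with the library as a block, since both are brain macrophages that differ in position. Both classes were defined by clustering these cells without the tight junction genes. F11r was at 594, 585, 518 and 527 CPM in the microglia-like and at 9.27, 6.99, 25.3 and 12.8 in the border macrophage-like cells, a log2 fold change of 5.51 (SE 0.20, edgeR adjusted p = 3.94e-15). Jam2 was at 120, 78.7, 101 and 95.8 against 0.842, 0.411, 3.37 and 0, a log2 fold change of 6.58 (SE 0.35, edgeR adjusted p = 1.44e-12) that rests on 5 Jam2 UMIs in the border macrophage-like cells. Tjp1 was at 157, 119, 196 and 153 against 10.95, 10.7, 3.37 and 5.67, a log2 fold change of 3.83 (SE 0.22, edgeR adjusted p = 6.56e-12). In every library all 3 genes were far higher in the microglia-like cells. With 1 library left out at a time the log2 fold changes were 5.18 to 5.81 for F11r, 6.35 to 7.13 for Jam2 and 3.61 to 4.15 for Tjp1, the libraries rich in hemoglobin among those left out.

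The shares of cells with a UMI showed the same order: 89.8% against 6.15% for F11r, 40.7% against 0.715% for Jam2 and 53.3% against 7.01% for Tjp1, with median depths of 6227 and 8062 UMIs. In T or NK cell-like cells of the same libraries the shares were 0 for F11r (up to 0.558% allowed by 538 cells), 0.372% for Jam2 and 2.42% for Tjp1. The 3 members passed the detection filter through the microglia-like cells alone, so their calls are given as values and their count as no support, beside 16.4% of 7408 genes called in either direction and 7.86% called higher in microglia-like cells. Of the 7 other list genes tested, Jam3 (4.16, SE 0.49) and Magi1 (3.47, SE 0.45) were called, both higher in microglia-like cells, with edgeR adjusted p of 3.48e-07 and 1.53e-06. Jam3 and Magi1 also passed the filter through the microglia-like cells alone, so these calls too are given as values and as no support. Cldn5 and Ocln were found in 1.57% and 1.31% of microglia-like cells. Endothelial markers summed to 387 to 511 CPM in the microglia-like cells, with 9 to 15 of 31 detected, and to 246 to 312 in the border macrophage-like cells, with 10 to 22 detected, and their part was not tested.

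**Figure D5:**
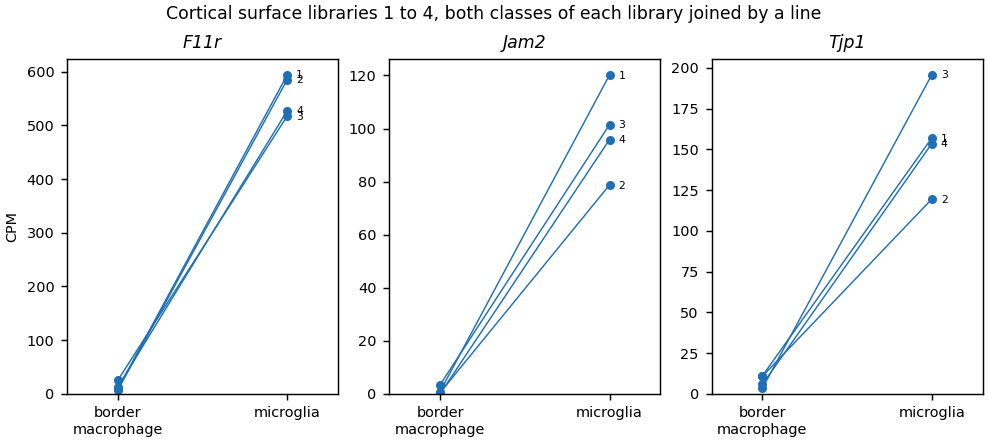
Levels of F11r, Jam2 and Tjp1 (CPM) in border macrophage-like and microglia-like cells of cortical surface libraries 1 to 4, joined by library. Each line rises from at most 25.3 to at least 518 for F11r, and all lines rise for the other 2 genes.

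Ordering the classes by mean level set each member in context, for the classes described here with at least 10 cells in at least 2 libraries. Monocyte or other macrophage, dendritic, neutrophil, B, mast and erythroid-like cells were not ranked, so a highest level is the highest among the ranked classes only. F11r was highest in microglia-like cells (556 ± 39.2 CPM, SD, n = 4), apart from the endothelial-like cells of the bone-associated (252 ± 10.1) and cortical surface libraries (215 ± 33.6), whose ranges overlapped each other. Jam2 was highest in endothelial-like cells of both preparations, whose ranges overlapped (376 ± 38.5 and 325 ± 38.1), followed by microglia-like cells (99.0 ± 17.1). Esam, an endothelial adhesion protein, was likewise shared by both endothelial groups and came next in mural cells, with 304 ± 77.1 and 236 ± 7.01 in pericyte-like and 219 ± 3.97 and 169 ± 13.6 in vascular smooth muscle-like cells of the cortical surface and bone-associated libraries. Tjp1 was the most widely spread member. After cortical surface endothelial-like cells (582 ± 108) which stood apart, came cortical surface mesenchymal-like (352 ± 88.7), bone-associated endothelial-like (327 ± 122) and cortical surface pericyte-like cells (194 ± 49.3), and each of these 3 overlapped the next. Cldn11 was apart in bone-associated mesenchymal-like cells (306 ± 90.9) from the next ranked classes, which were at or below 29.3. Oligodendrocyte-like cells, with a pooled Cldn11 level of 2400 but under 10 cells per library, were not ranked. Ocln fell from 211 ± 29.9 and 60.0 ± 22.5 in the 2 endothelial groups to 12.4 ± 6.65 in choroid plexus-like cells, each apart from the next.

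The genes outside the tight junction list whose levels ran most like those of Cldn5, Cldn11 and Tjp1 were ranked by Pearson's r of log2(CPM + 1) over 66 sums of 18 classes, among 14727 genes. For Cldn5 they were Sox17 (r = 0.897), Sema3c (0.879) and Clec14a (0.868). For Cldn11 they were Rspo3 (0.854), Ssc5d (0.852) and Fbln7 (0.838), and for Tjp1 they were Apbb2 (0.873), Clstn1 (0.868) and Zfp532 (0.866). These sums share libraries and differ in depth, and Sox17 and Clec14a were among the markers that named the endothelial class. Oligodendrocyte-like cells, high in Cldn11, had under 10 cells per library and did not enter, so the Cldn11 ranking leaves them out.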

How the data were processed

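Single-cell RNA sequencing of 6 libraries was used, 4 cortical surface-associated and 2 bone-associated, grouped by their titles. The authors deposited raw UMI counts for each gene in each barcode, after alignment to mm10 with Cell Ranger. The submitters' processing notes name Cell Ranger 3 and the file headers 6.1.2. The deposited protocol text describes papain digestion of the V-SVZ, whereas the study's methods describe collagenase D and dispase II digestion of cortical surface and skull tissue.

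Barcodes with 500 or more genes and no more than 10% of UMIs from mitochondria were kept and 124 predicted doublets removed (0.8% per 1000 cells, scored against 2 simulated doublets per cell). Free RNA was not corrected. Each preparation was clustered alone, without Harmony, on 2000 variable genes, 30 components and 15 neighbours (Leiden resolution 1.5; endothelial sub-clusters 0.6), with tight junction and mitochondrial genes left out. The clusters are not the authors', and differences from the study may come from rebuilt names. A class name needed at least 3 leading markers (a UMI in at least 20% of cells and a mean 2-fold or more above the remaining cells). Choices made after seeing the data were the splitting of mixed clusters, the exemption of erythroid markers and of the choroid plexus and ependymal pair from the naming limits, sub-clustering of endothelial cells without hemoglobin genes, their markers judged against all other endothelial-like cells, and the need for Plvap to lead a fenestrated or venous sub-cluster. Unnamed cells numbered 922 and 381 in the cortical surface and bone-associated preparations and enter no comparison.

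UMI counts were summed per library and class (at least 10 cells) and tested with edgeR 4.0.16 in R 4.3.3 (TMM, quasi-likelihood) for genes found in over 10% of cells of either group, with Benjamini-Hochberg adjustment over all genes tested. Genes were called at an adjusted p under 0.05 where the log2 fold change was also 1.3 or more in either direction, and SE is the log2 fold change divided by the square root of F. The microglia comparison had the library as a block. The scripts were tested on simulated counts. DESeq2 1.42.0 and the other alternatives are given in the closing section. Exact Poisson and binomial intervals (95%) and limits for a count of 0 (3 counts) cover counting error only. The libraries are pools of mice, so p-values measure the spread between pools.

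The 9 genes are named always, as are the other list genes called in a comparison, the 3 highest in endothelial-like, mesenchymal-like and choroid plexus-like cells, and the 3 genes most like Cldn5, Cldn11 and Tjp1. One called list gene is not reported here. Marker and cluster genes named beside them were chosen after their values were seen. The members and lists were chosen with earlier results of these data known. Coordinates come from the GENCODE annotation of GRCm38, and promoter sequences, matched for 7 of the 9 genes by symbol, from RefSeq (GRCm38.p6).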

Additional observations from a re-analysis of the deposited data

Results flagged for a closer look

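Levels of the members were examined in 17 groups of 4 libraries for a library far from the other 3 (Dixon's ratio), and 3 groups held one. By chance about 5% of such groups are expected to. Cldn5 in pericyte-like cells was at 109.5 CPM (UMIs scaled to 1000000 per class and library) in cortical surface replicate 2, and 85.6% of the Cldn5 UMIs of the cortical surface pericyte-like cells came from 3 cells, 1 of which held 82. Ocln in endothelial-like cells was at 256 CPM in cortical surface replicate 2, above the other 3, and Tjp1 in mesenchymal-like cells was at 221 in cortical surface replicate 2, below the other 3.

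The effect of the preparation differed between cell kinds for 4 results, each by an edgeR test of the difference itself. Between endothelial-like and mesenchymal-like cells the log2 effects differed by -1.24 for Tjp1 (SE 0.30). The difference for Cldn11 was 2.45 (SE 0.59), but Cldn11 was found in 2.59% and 3.83% of endothelial-like cells, under the detection filter, and entered through bone-associated mesenchymal-like cells alone, so this value adds nothing to the mesenchymal comparison. Between arterial-like and blood-brain barrier capillary-like cells they differed by 2.13 for Ocln (SE 0.46) and by 1.22 for Cldn5 (SE 0.25).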

How the results depend on the processing

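Of 430 fold changes of members recomputed under the alternatives, 410 kept their direction and side of the limits, 4 lost a call, 1 gained one and 15 changed sign. All 15 sign changes were in genes not called. Jam2 in mesenchymal-like cells was between -0.073 and 0.44 with 1 library left out. Jam2 in arterial-like cells was at -0.033 with upper-quartile scaling, -0.087 without the detection filter, -0.58 with cortical surface replicate 4 as the one cortical surface library (replicates 3 and 4 alone, of which replicate 3 had under 10 such cells), -0.035 at 1000 or more genes per cell, -0.19 at up to 20% mitochondrial UMIs, -0.30 when thinned, and -0.30 to 0.20 with 1 library left out. In capillary-like cells, with 1 library left out, Tjp1 was at -0.16 to 0.73, F11r at -0.22 to 0.39 and Esam at -0.23 to 0.18, and Tjp1 was at -0.11 with 1000 or more genes per cell, F11r at -0.083 and Esam at 0.068 when thinned. The 4 lost calls were the 2 of Cldn1 and the 2 of arterial Cldn5 given above, and Tjp1 in arterial-like cells gained one. Cldn5, not tested in mesenchymal-like cells with all libraries, was called there without bone-associated replicate 2 (-1.94, edgeR adjusted p = 0.0479), with 1 library in that arm, assumed to vary like the others. Of the bone-associated Cldn5 UMIs in this class 68.0% came from 3 cells, which also held 4 Pecam1, 8 Esam, 38 Flt1 and 17 Ly6c1 UMIs. Of 187 recomputed levels 182 were counted as moving by less than 1 SD. Levels from cortical surface replicates 1 and 2 or 3 and 4 alone could not move further, because the same libraries gave the SD. The other 5 include the Cldn5 levels of Schwann-like, astrocyte-like and bone-associated mesenchymal-like cells without their 3 highest cells. Those were set as moved and have no SD. This count is therefore no support.

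Thinning to 1500 UMIs per cell lowered the genes called, to 568 from 1374 in mesenchymal-like, 244 from 482 in endothelial-like, 608 from 1214 in the microglia comparison, 113 from 338 in arterial-like and 47 from 186 in capillary-like cells. The genes tested fell as well, in the same order to 2668 from 9635, 2714 from 7688, 2696 from 7408, 2763 from 7600 and 3055 from 8083. Without the detection filter the genes called were 887 of 16797 tested in endothelial-like cells and 2029 of 17105 in the microglia comparison. They were 176 of 13425 in arterial-like and 384 of 15008 in capillary-like cells. DESeq2 called 152 genes in arterial-like cells. In capillary-like cells cortical surface replicates 1 and 2 alone gave 114, and a minimum of 1000 genes per cell gave 89 with 1 member called, Cldn11 at -2.89. Leaving out 1 library at a time gave 150 to 336 genes and 1 or 2 members in arterial-like cells, and 111 to 211 genes in capillary-like cells. The cause was not tested beyond the fewer genes tested and UMIs in the thinned fits and the fewer libraries in the left-out fits.

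The labels give same-numbered libraries of the 2 preparations a shared number and do not say whether they are otherwise related. Their deviations from the preparation mean had correlations of -0.01 to 0.22 (2 pairs). With 2 bone-associated libraries the 2 pairs are not independent, so these values cannot decide whether the libraries are paired. With the replicate block the genes called were 1422 in mesenchymal-like, 495 in endothelial-like, 321 in arterial-like and 157 in capillary-like cells, with 3, 2, 2 and 0 members called. Without the library block the microglia comparison called 1215 genes and 3 members. With 2 bone-associated libraries, and 22 to 45 cells in their smallest classes, small differences are beyond the depth.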
